A study of Mus musculus with 10 samples.

Results

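The genes described here encode the pore-forming alpha-1 subunits of voltage-gated calcium channels. They are 8 of the 24982 rows of a table of raw read counts, taken by gene symbol and not by value. The table lists them in capitals as CACNA1A, CACNA1B, CACNA1C, CACNA1D, CACNA1E, CACNA1G, CACNA1H and CACNA1I, and they are written below in the mouse style (Cacna1a). The data are bulk RNA sequencing of the dentate gyrus, where the granule neurons of the hippocampus lie, micro-dissected from male mice aged 10 weeks. There were 5 mice with a global knockout of Fndc5 (Fndc5 KO), which encodes the precursor of irisin, and 5 wild types, all on the C57BL/6 strain background and with no other allele or treatment in the labels. The knockout is global, so the gene is disrupted in each cell of the animal and not in 1 cell type, and the labels do not say which exons are missing. The comparison asks whether the transcripts of these channels differ in the dentate gyrus when Fndc5 is disrupted.

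Voltage-gated calcium channels open when a neuron depolarizes and let calcium enter, where it triggers transmitter release, shapes firing and signals to the nucleus. The alpha-1 subunit holds the pore, the voltage sensors and most drug sites, and it comes in 3 classes. Cav1 channels are the L-type channels of somata and dendrites, Cav2 channels include the P/Q-, N- and R-type channels of nerve terminals, and Cav3 channels are the low-voltage-activated T-type channels that support burst firing. Cav1 and Cav2 subunits associate with alpha-2-delta and beta subunits, whereas Cav3 subunits can form channels without them.

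The classes can be read in the coding sequence of the pore. Each alpha-1 subunit has 4 homologous repeats, and 1 acidic residue of each repeat lines the selectivity filter. The stretches below, 5′ to 3′ from the longest coding transcript of each gene in GENCODE M21 (GRCm38), cover that site in the fourth repeat and are shown because they separate the classes by which the results are ordered. Capitals mark the codon of the acidic residue.
Cacna1c: tgtgccaccggaGAGgcctggcaggacatc
Cacna1d: tgtgcaacagggGAAgcctggcaggagatc
Cacna1a: agcgccacaggaGAAgcgtggcacaacatc
Cacna1b: agtgccactgggGAGgcctggcatgagatc
Cacna1e: agtgccacggggGAGgcttggcaggagatt
Cacna1g: gtctccactggtGACaactggaatggtatt
Cacna1h: gtgtccactgggGACaactggaatgggatc
Cacna1i: gtctccacaggcGATaactggaatgggatt
The codon was GAA or GAG, which encode glutamate, in the 5 Cav1 and Cav2 genes, and GAC or GAT, which encode aspartate, in the 3 Cav3 genes. It thus set Cav3 apart but did not tell Cav1 from Cav2. Their stretches differed in the first codon shown, tgt in the Cav1 genes and agc or agt in the Cav2 genes. The marked codon was codon 1499 of Cacna1c and codon 1813 of Cacna1h, counted from the start codon. Although the genes are paralogs, their annotated transcripts had 0 runs of 75 bases, the read length, in common with each other. Only Cacna1e shared such runs with genes outside the family, 60 of 25627 runs (0.234%). Reads with mismatches were not covered by that search.

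The 10 libraries held 26226375 to 43802079 counts. Each member had between 1388 and 21677 counts in each library, and all 8 passed the filter on low counts. Fndc5 was at 50.9, 45.4, 53.9, 49.7 and 56.7 CPM (counts scaled to library size, with TMM factors) in Fndc5 KO mice and at 78.9, 69.2, 72.2, 80.3 and 76.1 CPM in wild types, so it was lower in every knockout but not absent. Granule neuron markers were abundant, with Prox1 at 367 ± 26.8 CPM in knockouts and 366 ± 35.7 CPM in wild types (SD, n = 5 each). Wild-type mouse 1 stood apart: its summed granule neuron markers (1939.6 CPM) were the lowest of the 10 mice and its interneuron markers (558 CPM) the highest. The other wild types were at 2154 to 2228 CPM for granule markers and at 468 to 502 CPM for interneuron markers. No gene of the marker lists (granule, mossy and CA neurons, interneurons, thalamus and habenula, astrocytes, oligodendrocytes, microglia and vessels) passed the edgeR test between genotypes. At an unadjusted p under 0.05 were Gad1 and Vip of 7 interneuron markers and Grik4 of 7 CA markers (lower in knockouts). Dsp and Lct of 8 granule neuron markers and Acta2 of 5 vascular markers (higher) were also at that level. Each of these genes had an edgeR adjusted p of 0.788. None was at that level of 5 mossy cell, 6 thalamus and habenula, 5 astrocyte, 5 oligodendrocyte and 5 microglia markers tested. Over all genes tested, 6.29% were. Summed interneuron markers were at 444 to 493 CPM in knockouts and 468 to 558 CPM in wild types. Each of the 7 had a log2 fold change below 0, from -0.079 (Slc32a1) to -0.30 (Vip). In bulk tissue, fewer cells of a type and less RNA per cell cannot be told apart.

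None of the 8 alpha-1 genes passed the test between genotypes. The range of the knockouts overlapped that of the wild types for each of them, as the plot of CPM by mouse shows. In the edgeR quasi-likelihood fit over 14867 genes, 0 of 8 had a Benjamini-Hochberg adjusted p under 0.05, where 0.00673% of all genes did (1 gene, Fndc5). The DESeq2 Wald test also gave 0 of 8. At an unadjusted p under 0.05 there was 1 of 8 with either tool, Cacna1c, against 6.29% of all genes in edgeR. Cacna1c had the lower value in knockouts, as 3.75% of all genes did at that p, and 0 of 8 had a higher value, against 2.54% of all genes. A single gene in 8 at that level is no result about the family. Groups did not overlap for 0 of 8, against 0.895% of all genes.

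**Figure D1:**
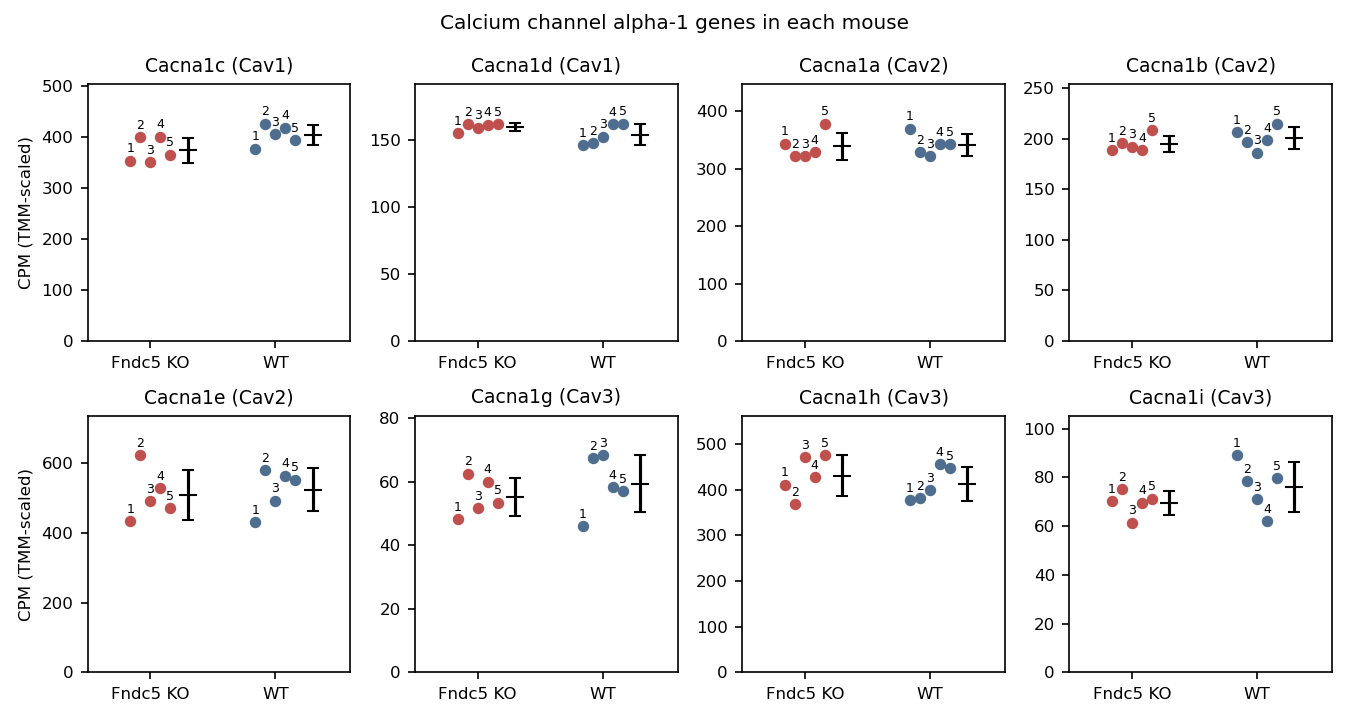
CPM of each alpha-1 gene by mouse, with Fndc5 KO mice left of wild types in each panel, mouse numbers above the points, and black bars for the mean and SD of 5 mice. The ranges of the genotypes overlap in all 8 panels, and Cacna1d spans only 155 to 162 CPM in the knockouts.

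The fit bounds the size of any difference. For each of the 8 genes the 95% interval of the fold change lay within 1.25-fold in both directions, which held for 74.1% of all genes tested. Log2 fold changes (Fndc5 KO over wild type) were below 0 for 6 of 8 genes, against 49.3% of all genes, with a median of -0.042 against 0.0016 over all genes. Upper-quartile scaling put 5 of 8 below 0. The family median leaned on single mice: it was -0.084 without knockout mouse 2, -0.023 without knockout mouse 1 and -0.019 without wild-type mouse 5.

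**Figure D2:**
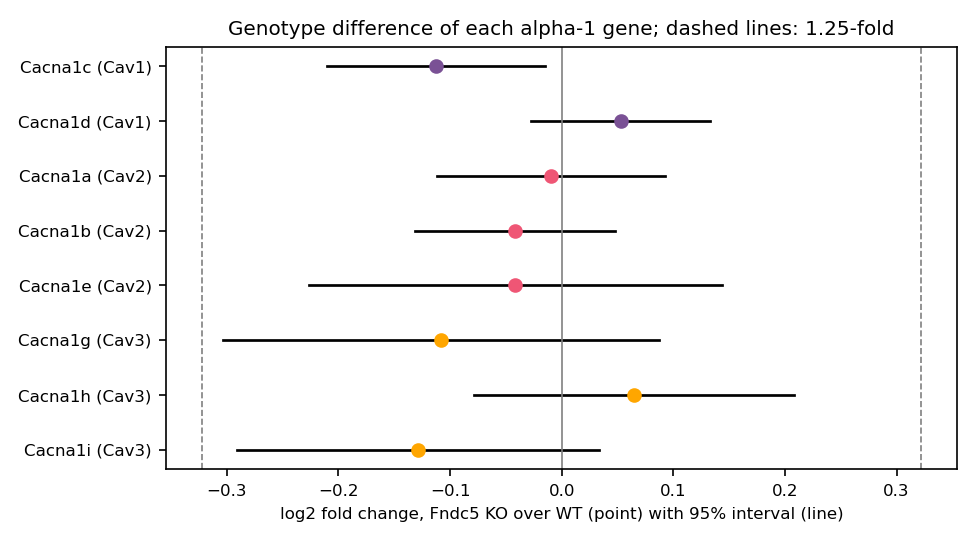
Log2 fold change of each alpha-1 gene, Fndc5 KO over wild type, with its 95% interval from the edgeR fit, colored by class. All 8 intervals lie inside the dashed lines at 1.25-fold, and only that of Cacna1c (-0.21 to -0.015) leaves out 0.

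Among the Cav1 genes, Cacna1c encodes Cav1.2, the main L-type channel of brain and heart, which in neurons links depolarization to gene transcription. The gene lies on chromosome 6, 118587240 to 119196418 on the minus strand (GRCm38). It was at 353, 399, 349, 400.3 and 365 CPM in knockout mice 1 to 5 and at 377, 426, 404, 418 and 393 CPM in wild types 1 to 5. All 5 knockouts were below the wild-type median of 404 CPM, and 2 of them, mice 2 and 4, lay above wild types 1 and 5. The mean was 373 ± 24.6 CPM in Fndc5 KO mice and 403 ± 19.5 CPM in wild types (SD, n = 5 each), a log2 fold change of -0.11 (SE 0.046, 95% interval -0.21 to -0.015) and 92.5% (95% interval 86.5% to 99.0%) of the wild-type level. Its edgeR adjusted p was 0.788 at an unadjusted p of 0.0264, and an exact two-sided permutation test gave p = 0.0714, where 0.00794 is the smallest this design allows. With single mice left out the log2 fold change stayed between -0.14 and -0.089. The edgeR unadjusted p was above 0.05 without knockout mouse 1 (0.0732), 3 (0.0787) or 5 (0.0546), or wild-type mouse 2 (0.0713) or 4 (0.0636). It was below 0.05 without knockout mouse 2 (0.00987) or 4 (0.0094), or wild-type mouse 1 (0.00846), 3 (0.0432) or 5 (0.0282). Each knockout was below the wild type of the same number. With the mouse number as a block the unadjusted p was 0.00147, where 1493 of 14867 genes were under 0.05. Of 18 alternatives, 13 gave an unadjusted p under 0.05 for Cacna1c. Over 18 alternatives its adjusted p ranged from 0.230 to 0.999.

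Cacna1d encodes Cav1.3, an L-type channel that opens at more negative voltages than Cav1.2, and lies on chromosome 14, 30039939 to 30491455 on the minus strand. Its levels were 155, 162, 159, 161 and 162 CPM in knockouts and 146, 148, 152, 162 and 162 CPM in wild types. Every knockout was above the wild-type median (152 CPM), while wild types 4 and 5 were as high as the highest knockouts. It varied least of the 8 genes among knockouts, with a coefficient of variation of 1.86%, against 4.98% among wild types. In the fit it came to 104% (95% interval 98.1% to 109.6%) of the wild-type level, a log2 fold change of 0.053 (SE 0.038, 95% interval -0.027 to 0.13), and edgeR gave an adjusted p of 0.827. Without wild-type mouse 1 the log2 fold change was 0.034.

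Because the 2 Cav1 genes had fold changes of opposite sign, their balance was described as a ratio, chosen after the values were seen and given with no test. Cacna1c over Cacna1d, as a ratio of CPM that does not depend on library scaling, was 2.28, 2.47, 2.2, 2.48 and 2.25 in knockouts and 2.58, 2.88, 2.65, 2.58 and 2.43 in wild types. The 2 highest knockouts, mice 2 and 4, lay above wild-type mouse 5, and the other 3 knockouts below every wild type. Its mean was 2.34 ± 0.129 in knockouts and 2.62 ± 0.166 in wild types (SD, n = 5 each). Per kilobase of annotated exon, Cacna1c made up 58.1% ± 1.34 of the Cav1 transcripts in knockouts and 60.9% ± 1.48 in wild types. This share depends on the length used and was larger per kilobase of coding sequence. There Cacna1c was at 56.0 CPM per kilobase in knockouts and 60.5 in wild types, and Cacna1d at 24.4 in knockouts and 23.6 in wild types.

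Of the Cav2 genes, Cacna1a encodes the P/Q-type channel Cav2.1, which drives fast transmitter release, and lies on chromosome 8, 84388440 to 84640246 on the plus strand. It was at 344, 322, 322, 329 and 379 CPM in knockouts and 369.8, 329, 321, 342 and 343 CPM in wild types. Knockout mouse 5 and wild-type mouse 1 were the highest of their genotypes, and the other mice of both genotypes shared 1 range. The groups differed by a log2 fold change of -0.0097 (SE 0.048, 95% interval -0.11 to 0.093) at an adjusted p of 0.982 in edgeR, and its sign turned under upper-quartile scaling (0.00026) and without wild-type mouse 1 (0.021), knockout mouse 2 (0.0083) or knockout mouse 3 (0.0089). The interval bounds its knockout level to between 92.5% and 107% of wild type.

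Cacna1b, which encodes the N-type channel Cav2.2 of presynaptic terminals, lies on chromosome 2, 24603887 to 24763152 on the minus strand. It had 188, 195, 192, 189 and 208 CPM in knockouts, against 206, 196, 186, 198 and 215 CPM in wild types. Mouse 5 was the highest in both genotypes, and 4 of 5 knockouts were below the wild-type median. Knockouts were at 97.1% (95% interval 91.3% to 103%) of wild type, and the log2 fold change of -0.042 (SE 0.042, 95% interval -0.13 to 0.048) had an adjusted p of 0.883 in edgeR. It was -0.016 without wild-type mouse 5, -0.068 without wild-type mouse 3 and -0.067 without knockout mouse 5.

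Cacna1e encodes the R-type channel Cav2.3, found in dendritic spines and in terminals that include the mossy fibres of granule neurons, and lies on chromosome 1, 154390731 to 154884501 on the minus strand. Its mean CPM was the highest of the 8 genes before length was taken into account. It was at 434, 623, 491, 529 and 471 CPM in knockouts and 432, 581, 493, 565 and 553 CPM in wild types. Knockout mouse 2 was the highest of the 10 mice, and mouse 1 was the lowest in both genotypes. All mice together gave a log2 fold change of -0.042 (SE 0.088, 95% interval -0.23 to 0.14) at an adjusted p of 0.951 in edgeR. It was 0.011 without knockout mouse 1, -0.12 without knockout mouse 2, -0.10 without wild-type mouse 1 and -0.0022 without wild-type mouse 2, so single mice set its size and sign.

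Among the Cav3 genes, Cacna1h encodes Cav3.2, a T-type channel whose opening near rest favors burst firing, and lies on chromosome 17, 25374285 to 25433783 on the minus strand. Knockouts were at 411, 368, 470.4, 427 and 475 CPM and wild types at 376, 381, 398, 456 and 447 CPM. The 2 highest values belonged to knockout mice 5 and 3, and the lowest also to a knockout, mouse 2. The level in knockouts was 105% (95% interval 94.7% to 116%) of that in wild types, a log2 fold change of 0.065 (SE 0.068, 95% interval -0.079 to 0.21) at an adjusted p of 0.884 in edgeR. It was smaller without knockout mouse 5 (0.027), knockout mouse 3 (0.031), wild-type mouse 1 (0.034) or wild-type mouse 2 (0.038), and larger without knockout mouse 2 (0.12) or wild-type mouse 4 (0.10). Tpsg1, which overlaps Cacna1h exons on the opposite strand, had at most 10 counts in a library. Chdh, which likewise overlaps Cacna1d, had at most 132, and Gm16183, antisense to Cacna1a, was not analysed here. Whether the counting used strand is not given in the sources used here.

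Cacna1i encodes Cav3.3, the T-type channel with the slowest kinetics, and lies on chromosome 15, 80287238 to 80398279 on the plus strand. It had 70.3, 75.3, 61.5, 69.6 and 71.2 CPM in knockouts and 89.1, 78.4, 71.0, 62.1 and 79.8 CPM in wild types. All 5 knockouts were below the wild-type median of 78.4 CPM, but the highest and second lowest of the 10 mice were both wild types, mice 1 and 4. Its log2 fold change was the farthest from 0 of the 8, at -0.13 (SE 0.077, 95% interval -0.29 to 0.033), at an adjusted p of 0.80 in edgeR, and the exact permutation test gave p = 0.254. Without wild-type mouse 1, the mouse with the highest interneuron markers, it was -0.065 (unadjusted p 0.358), and without wild-type mouse 4 it was -0.19 (unadjusted p 0.00908, adjusted p 0.660). Over 18 alternatives the adjusted p ranged from 0.458 to 0.999.

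Cacna1g encodes Cav3.1, the T-type channel of thalamic relay neurons, and lies on chromosome 11, 94408391 to 94474198 on the minus strand. It was at 48.2, 62.5, 51.7, 60 and 53.4 CPM in knockouts and 46.1, 67.3, 68.3, 58.2 and 56.9 CPM in wild types. Wild-type mouse 1 was the lowest of the 10 and wild types 2 and 3 the highest, so the wild types enclosed all knockouts. The fit gave a log2 fold change of -0.11 (SE 0.092, 95% interval -0.30 to 0.087) at an adjusted p of 0.858 in edgeR. Without wild-type mouse 1 it was -0.19 (unadjusted p 0.0227, adjusted p 0.683), and without wild-type mouse 3 it was -0.050 (unadjusted p 0.594, adjusted p 0.958). It was -0.061 without wild-type mouse 2 and -0.063 without knockout mouse 1. Thalamus and habenula markers summed to 67.8 to 88.5 CPM over 7 genes in knockouts and 65.8 to 72.2 CPM in wild types, and Gbx2 of that list had 0 counts in knockout mice 1, 2 and 5. Their part in the Cacna1g level was not tested.

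Levels of different genes were compared per kilobase of annotated exon, since long transcripts yield more fragments. On that scale Cacna1h led the family, with 44.1 ± 4.53 CPM per kilobase in knockouts and 42.2 ± 3.81 in wild types (SD, n = 5 each). Cacna1a followed with 29.7 ± 2.09 CPM per kilobase in knockouts and 29.9 ± 1.61 in wild types, and each was above the next gene in 10 of 10 mice with no overlap of ranges. Cacna1e (20.2 in knockouts and 20.8 CPM per kilobase in wild types), Cacna1b (19.6 in knockouts and 20.1 in wild types) and Cacna1c (17.6 in knockouts and 19.0 in wild types) formed a middle group with overlapping ranges. Cacna1e was above Cacna1b in only 7 of 10 mice, and Cacna1b above Cacna1c in 8 of 10. Cacna1d was lower, at 12.7 in knockouts and 12.2 CPM per kilobase in wild types, and separate from both neighbours. Cacna1i (7.06 in knockouts and 7.71 in wild types) and Cacna1g (5.44 in knockouts and 5.86 in wild types) were lowest, and Cacna1i exceeded Cacna1g in each of the 10 mice although their ranges overlapped.

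The order in the upper part of the family depended on the length used, and the annotated exons of Cacna1e and Cacna1c extend far beyond their coding sequence. The exon union was 25228 bases for Cacna1e and 21191 for Cacna1c, against 9763 for Cacna1h, while their longest coding sequences had 6819, 6666 and 7077 bases. Per kilobase of coding sequence Cacna1e was first, at 74.7 ± 10.6 CPM per kilobase in knockouts and 76.9 ± 9.04 in wild types, and Cacna1h second, at 60.8 ± 6.25 CPM per kilobase in knockouts and 58.2 ± 5.25 in wild types. With the longest transcript, Cacna1h stayed first and Cacna1c moved ahead of Cacna1b. Cacna1d, Cacna1i and Cacna1g were the lowest 3 of the 8 with each of the 3 lengths, in that order.

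**Figure D3:**
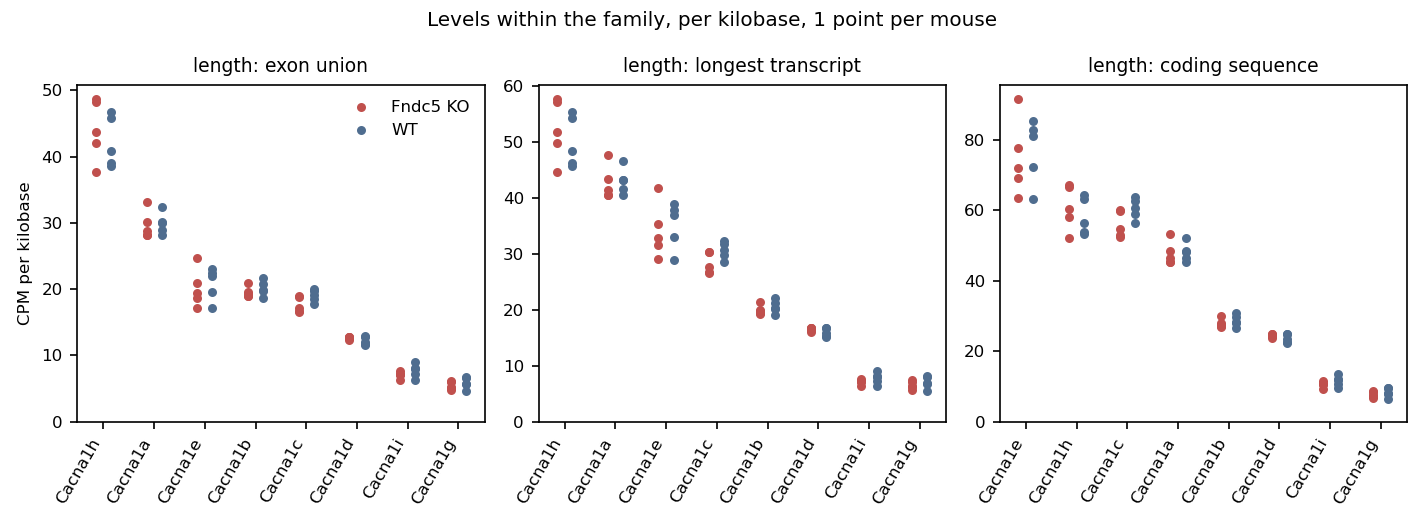
Length-scaled level (CPM per kilobase) of each alpha-1 gene, 1 point per mouse, Fndc5 KO left of wild type within each gene, for 3 definitions of length. By mean level, Cacna1h is highest per kilobase of exon union and of longest transcript, Cacna1e per kilobase of coding sequence, and Cacna1g is lowest in all 3 panels.

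By class, Cav2 genes gave the greatest part of the family sum per kilobase of exon, 44.4% ± 1.33 in knockouts and 44.9% ± 1.08 in wild types. Cav3 genes made up 36.2% ± 1.94 in knockouts and 35.3% ± 0.969 in wild types, and Cav1 genes 19.4% ± 0.876 in knockouts and 19.8% ± 0.580 in wild types (SD, n = 5 each). The family sum was 156 ± 5.29 CPM per kilobase in knockouts, ranging from 149 to 164, and 158 ± 6.01 in wild types, ranging from 152 to 164. Within Cav3, Cacna1h accounted for 77.8% ± 2.93 in knockouts and 75.5% ± 2.68 in wild types. The remaining members of the gene family were near the floor: Cacna1f, the L-type subunit of the retina, had 1 to 10 counts per library and Cacna1s, that of skeletal muscle, 3 to 22, and neither passed the filter.

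The genes did not vary as 1 unit across mice. After each genotype's mean was subtracted from log2 CPM, 13 of 28 pairs of members had a positive Pearson correlation over the 10 mice. With permutation tests adjusted over the 28 pairs, 0 passed. The permutations treated the 10 mice as independent, although same-numbered knockouts and wild types correlated at 0.334 (Cacna1i) to 0.802 (Cacna1c) for the members. By Pearson r, the highest were between Cacna1c and Cacna1g (r = 0.82 and rho = 0.82, permutation p 0.00409 and 0.00563, adjusted 0.0777 and 0.158) and between Cacna1c and Cacna1e (r = 0.82 and rho = 0.72, permutation p 0.00555 and 0.0240, adjusted 0.0777 and 0.282). Without the 2 mice farthest from the median of Cacna1c, r was 0.79 and 0.79 for these pairs. The lowest Pearson r was between Cacna1a and Cacna1g (r = -0.67 and rho = -0.64, permutation p 0.0336 and 0.0534, adjusted 0.188 and 0.282, and r = -0.69 without the 2 mice farthest from the median of Cacna1a). The lowest rho was between Cacna1h and Cacna1i (r = -0.61 and rho = -0.70, permutation p 0.0592 and 0.0310, adjusted 0.238 and 0.282), where r was -0.45 without the 2 mice farthest from the median of Cacna1h.

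The 3 genes Cacna1c, Cacna1e and Cacna1g were together high in knockout mice 2 and 4 and wild-type mouse 2, and together low in knockout mice 1, 3 and 5 and wild-type mouse 1. Cacna1e deviated from its genotype mean by 0.30 on the log2 scale in knockout mouse 2 and by -0.27 in wild-type mouse 1, and Cacna1g by 0.19 in knockout mouse 2 and -0.35 in wild-type mouse 1. Of 72 correlations between the genotype-centred means of the marker lists and the members, the 13 beyond 0.6 in size follow. Endothelial and mural markers correlated at r = 0.90 with Cacna1c, 0.80 with Cacna1e and 0.84 with Cacna1g over 10 mice, given as a description since all values share their libraries. The 5 vascular markers summed to 115 to 149 CPM in knockouts and 118 to 153 CPM in wild types, with 0 of 5 at 0. Granule neuron markers correlated at 0.81 with Cacna1g, 0.62 with Cacna1e and -0.68 with Cacna1i, and interneuron markers at -0.74 with Cacna1g and -0.66 with Cacna1d, with wild-type mouse 1 at the end of both ranges of summed levels. Markers of CA pyramidal neurons, which lie next to the dentate gyrus, correlated at 0.73 with Cacna1a, 0.75 with Cacna1b and 0.68 with Cacna1h. Their sum was 1639 to 1895 CPM in knockouts and 1664 to 1799 CPM in wild types. Cacna1a also correlated at -0.77 with hilar mossy cell markers, which summed to 81.5 to 114 CPM in knockouts and 86.5 to 117 CPM in wild types, and at 0.64 with astrocyte markers, at 1118 to 1302 CPM in knockouts and 1205 to 1292 CPM in wild types. No gene of these lists was at 0 in any mouse, and the part of the markers in the channel levels was not tested.

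**Figure D4:**
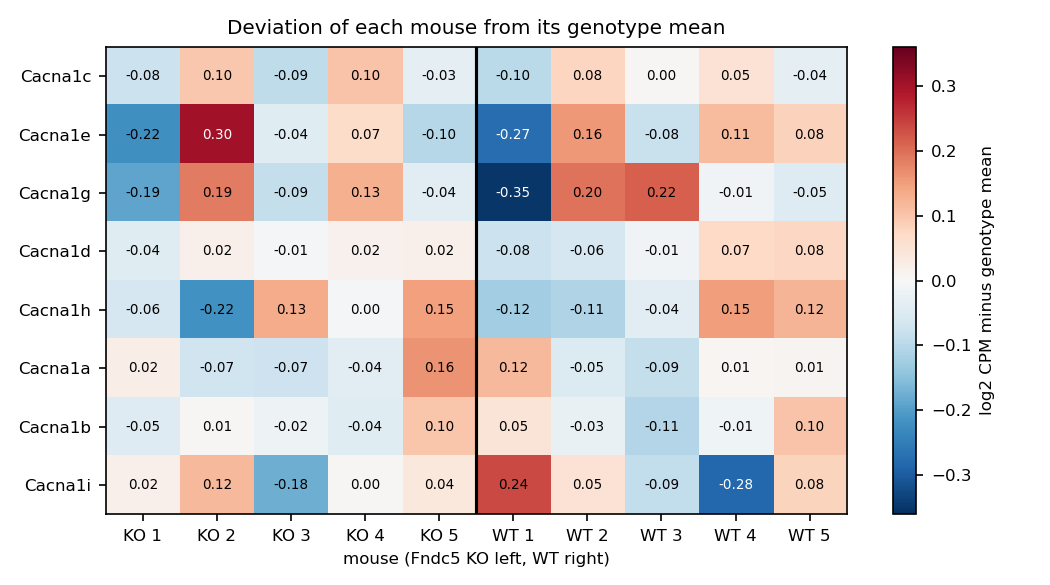
Deviation of each mouse from the mean of its genotype in log2 CPM, with rows for genes and columns for mice (Fndc5 KO left, wild type right). Red is above and blue below the genotype mean, and Cacna1c, Cacna1e and Cacna1g are all blue in mouse 1 of both genotypes, with -0.35 for Cacna1g in wild-type mouse 1 the lowest of all.

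Beyond the family, likeness was measured as the Pearson correlation of genotype-centred log2 CPM over the 10 mice with other genes tested. Genes named Gm with a number, or with names ending in Rik or -ps, were left out. The measure takes the highest of many values and carries no test. The 2 genes most like each member were Med23 (0.97) and Rab27b (0.96) for Cacna1c, and Dock10 (0.96) and Oxa1l (0.93) for Cacna1d. For the Cav2 genes, those given here were Cyfip2 (0.97) and Sulf2 (0.95) for Cacna1a, Pcdhac2 (0.99) for Cacna1b, and Slc4a10 (0.97) and Son (0.96) for Cacna1e. For the Cav3 genes they were Tardbp (0.98) and Stt3b (0.97) for Cacna1g, Dpysl5 (0.98) and Inf2 (0.95) for Cacna1h, and Zbtb4 (0.96) and Smarcc1 (0.95) for Cacna1i. No member was among the 2 genes most like another member.

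Genes that work with the alpha-1 subunits were examined in 7 lists. Of 38 partner genes, 33 passed the filter, and 0 of these had an adjusted p under 0.05 in edgeR or DESeq2. At an unadjusted p under 0.05 there were 0 by either tool, against 6.29% of all genes in edgeR. With single mice left out, 0 to 5 of the partner genes were at that level, while 557 to 1234 of all genes were. The 5 were found when knockout mouse 5 was dropped, where 943 of 14964 genes tested were at that level. With all mice, log2 fold changes of the 33 partner genes were above 0 for 13 and below 0 for 20, with a median of -0.046. The adjusted p-values that follow are from edgeR over all genes, and each list is given by its counts and, where reported, its member with the smallest p.

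Alpha-2-delta subunits, which carry Cav1 and Cav2 channels to the membrane, were below 0 for 3 of 4 (median -0.065). Cacna2d1, a binding site of gabapentin, was at 167, 199, 169.5, 170.2 and 164 CPM in knockouts and 177, 208, 189.5, 192 and 171 CPM in wild types, with a log2 fold change of -0.11 (SE 0.057, adjusted p 0.789). Knockout mouse 2 stood above the other 4 knockouts, and without wild-type mouse 2, the highest of the 10, the log2 fold change was -0.070. Beta subunits, which bind the cytoplasmic linker of Cav1 and Cav2 channels, were split 2 to 2 (median -0.015). Cacnb2 had 71.2, 72.0, 71.7, 72.3 and 73.7 CPM in knockouts and 73.9, 76.9, 74.3, 77.3 and 74.0 CPM in wild types. All knockouts were below all wild types, which held in that direction for 0.437% of all genes tested, but the difference was small, with a log2 fold change of -0.061 (SE 0.034, adjusted p 0.80) in edgeR, and after correction for GC content and transcript length it was 0.012.

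Tethers that hold Cav2 channels at the active zone were below 0 for 6 of 7 (median -0.072), and Rims2, which binds the channels through its PDZ domain, was at 69.1 ± 2.39 CPM in Fndc5 KO mice and 73.2 ± 3.9 CPM in wild types, a log2 fold change of -0.084 (SE 0.043, adjusted p 0.789) that was -0.055 without wild-type mouse 2. RGK GTPases, which inhibit high-voltage-activated channels, were scarce: Rem2 was at 10.4 ± 1.09 CPM in Fndc5 KO mice and 11 ± 1.29 CPM in wild types, a log2 fold change of -0.084 (SE 0.091, adjusted p 0.887) that was -0.012 without wild-type mouse 1 and -0.025 without knockout mouse 2, and Rem1 did not pass the filter. Calcium sensors of the channels, which tune channel inactivation, were below 0 for 4 of 7 tested (median -0.046). Gamma subunits and the related AMPA receptor proteins (TARPs) were above 0 for 5 of 7 tested (median 0.037). Cacng3 was at 66.0 ± 5.39 CPM in Fndc5 KO mice and 62.9 ± 3.81 CPM in wild types, a log2 fold change of 0.071 (SE 0.056, adjusted p 0.849). That value was 0.036 when wild-type mouse 1 was left out, 0.037 when knockout mouse 3 was, 0.041 when knockout mouse 2 was and 0.094 when knockout mouse 4 was. Nalcn, a sodium leak channel with the same repeat structure, was at 105 ± 5.74 CPM in Fndc5 KO mice and 111 ± 5.43 CPM in wild types, a log2 fold change of -0.076 (SE 0.044, adjusted p 0.80).

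**Figure D5:**
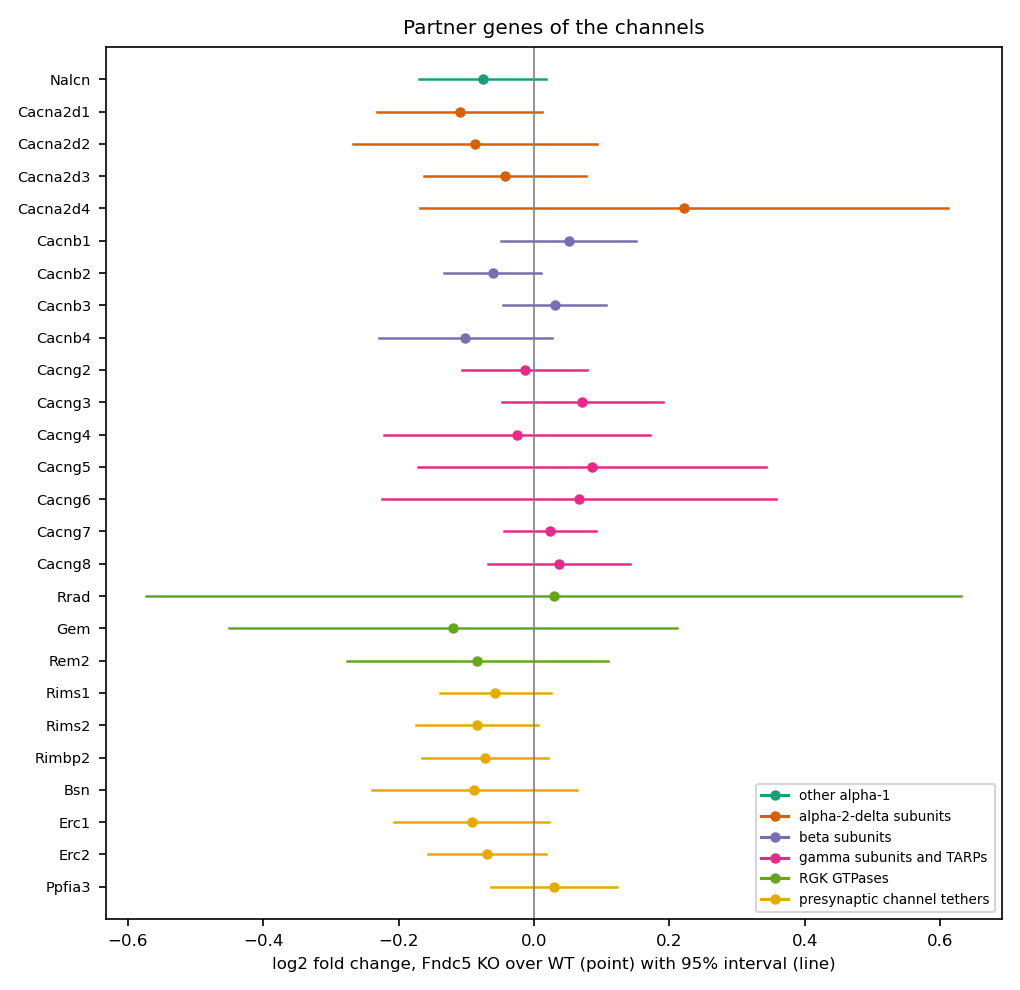
Log2 fold change, Fndc5 KO over wild type, of 26 partner genes that passed the filter, with 95% intervals from the edgeR fit and colors for 6 of the lists. All 26 intervals include 0, and those of scarce genes such as Rrad are the widest.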

How the data were processed

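Stranded poly(A) RNA of each mouse was read single-end over 75 bases, per the labels' protocols. The authors deposited whole-number read counts per gene, not normalized. Per the submitters' processing notes the tools include STAR 2.5.1b and Cufflinks 2.2.1 and the build is mm10. How strand and multi-mapping reads were treated is not stated. Each mouse gave 1 library, grouped by its genotype label, and same-genotype libraries differed beyond counting noise (chi-square per degree of freedom at least 4.63).

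Genes were filtered with filterByExpr, scaled by TMM and compared in edgeR 4.0.16 (R 4.3.3, glmQLFit and glmQLFTest, genotype alone), with Benjamini-Hochberg adjustment over 14867 genes. Exact permutation compared log2 CPM (prior count 2) over the 252 assignments of mice, and correlations used 100000 permutations. Positions, lengths and sequences came from GENCODE M21 (GRCm38, the build of mm10), matched by symbol. The fit was first tested on simulated counts. The partner genes named were the smallest p of each list, and for likeness the 2 highest correlations, and some of these are not reported here. The members and lists were chosen with earlier results of these data known. Alternatives were DESeq2 1.42.0, upper-quartile scaling, no filter, a minimum of 1 CPM in 5 mice, a block for the mouse number, limma-voom (limma 3.58.1), GC and length correction, removal of the ribosomal RNA precursor, each mouse left out, and other lengths.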

Additional observations from a re-analysis of the deposited data

Results flagged for a closer look

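Of 56 groups of 5 mice checked for a mouse far from the rest of its group, 4 had one, against about 2.8 by chance (1 in 20 groups). None was an alpha-1 gene. Cacna2d1 was at 199 CPM in knockout mouse 2, against 164 to 170.2 in the remaining knockouts. Without that mouse its log2 fold change was -0.16 (unadjusted p 0.00484, edgeR adjusted p 0.552). Rims2 was at 73.4 CPM in knockout mouse 5, against 67.6 to 68.5 in the remaining knockouts. Leaving that mouse out put its log2 fold change at -0.105 (unadjusted p 0.0308, edgeR adjusted p 0.775). Summed granule neuron markers were at 1939.6 CPM in wild-type mouse 1, against 2154 to 2228 in the remaining wild types. Summed thalamus and habenula markers were at 88.5 CPM in knockout mouse 5, against 67.8 to 73.7 in the remaining knockouts. Of that list, Prkcd was at 52.7 CPM in knockout mouse 5, against 27.6 to 39.4 in the remaining knockouts. Tcf7l2 was also at its highest knockout level in that mouse, at 6.77 CPM against 5.91 to 6.37. Slc17a6 and Lef1 were at their lowest knockout level there. Plekhg1 and Tac2 lay within the range of the remaining knockouts, and Gbx2 had 0 counts.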

How the results depend on the processing

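Under all 18 alternatives to the edgeR fit, 0 alpha-1 genes and 0 partner genes passed the threshold. Genes past it numbered 1, and 3 with DESeq2, 8 with the mouse number as a replicate block and 1 to 3 with single mice left out; the cause was not tested. The sign of Cacna1a was not fixed (0.00026 with upper-quartile scaling, -0.052 to 0.021 with single mice left out), nor that of Cacna1e (-0.12 to 0.011 with single mice left out), and Cacnb2 was at 0.012 after GC and length correction. Fndc5 passed under all 18. Class shares moved with the length used: per kilobase of longest transcript Cav1 was 21.6% in knockouts and 22.2% in wild types, Cav2 46.6% in knockouts and 47.0% in wild types and Cav3 31.8% in knockouts and 30.8% in wild types, and per kilobase of coding sequence Cav1 was 26% in knockouts and 26.6% in wild types, Cav2 48.5% in knockouts and 48.7% in wild types and Cav3 25.6% in knockouts and 24.7% in wild types. Pairs of members that co-varied numbered 0 also without removal of the genotype means.

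Deviations of same-numbered mice correlated at 0.209, 0.204, 0.108, 0.00901 and 0.0282 over all genes. All were above 0 but not all above 0.1, and mice with equal numbers were treated as unpaired. For the 8 members, however, the correlations between same-numbered mice were 0.334 (Cacna1i) to 0.802 (Cacna1c). Library names run in alternating order, each wild type followed by the knockout of the same number, and the labels give no reason for that order. The p-values and intervals given without the block leave out whatever same-numbered mice shared. With the replicate block the unadjusted p was 0.00147 for Cacna1c (log2 fold change -0.11, adjusted p 0.230) and 0.0349 for Cacna1i (-0.12, adjusted p 0.458). Under the block 2 of 8 members and 6 of 33 partner genes had an unadjusted p under 0.05, against 1493 of 14867 genes tested. Among the partners were Cacna2d1 (0.00303, adjusted 0.260) and Nalcn (0.0304, adjusted 0.446). The 95% intervals of the 8 genes had a median half-width of 0.123 in log2 units. Nothing in the labels names litters. Without the block, p-values set the genotype difference against the spread between these mice, including any part that same-numbered mice shared.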
